A study of Mus musculus with 8 samples.

Results

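The genes described here are 10 members of the NF-kB response, chosen by name and taken from the 33027 genes of the feature table: Nfkbia, Tnfaip3 and Nfkbiz (feedback inhibitors and modulators), Relb (a subunit), Zfp36 (mRNA decay), Icam1 and Birc3 (adhesion and survival), and Il1b, Il6 and Tnf (cytokines). The choice was made with earlier results of these data known. Counts of members set beside shares of all genes are therefore descriptions, not tests of the set. All 10 members were found. They were followed in single-cell RNA sequencing (scRNAseq) of lungs from 4 mice that inhaled cigarette smoke (CS) over 10 months and 4 littermate controls kept in room air (RA). All 8 mice were of the C57BL/6 strain and carried Sftpc-CreERT2 with the mTmG reporter, in which the surfactant protein C promoter drives the recombinase in alveolar type 2 (AT2) cells, and all received tamoxifen at 8 to 10 weeks of age, so the transgene and the drug were common to both groups. Each mouse gave 1 library, and p-values therefore measure the spread between mice. Cells were sorted on CD45 and recombined at a fixed ratio, so the share of immune cells in a library does not give their share in the lung. The values are transcripts per 10,000: each cell was scaled to 10,000 transcripts, a mean was taken per mouse and cell type, and mice 1 to 4 of a group are listed in that order throughout.

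NF-kB is a family of dimeric transcription factors that IkB proteins hold in the cytoplasm. When Toll-like receptors, the interleukin-1 receptor or tumor necrosis factor receptors are engaged, the IKK kinases mark IkB proteins for degradation, and the dimers enter the nucleus and switch on cytokines, adhesion molecules and their own inhibitors. Because Nfkbia (IkB-alpha) and Tnfaip3 (A20) are both targets and inhibitors, their transcripts are commonly read as a gauge of recent NF-kB activity. In the lung, macrophages and monocytes are known sources of tumor necrosis factor and interleukin-1 beta, and endothelium is known for ICAM-1, which leukocytes bind as they leave the blood.

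The members lie apart in the genome (GRCm38). Nfkbia is on chr12:55489410-55492647 (minus strand), Tnf on chr17:35199381-35202007 (minus strand), Il6 on chr5:30013114-30019981 (plus strand) and Icam1 on chr9:21015985-21028817 (plus strand), all annotated as protein-coding. RefSeq promoter windows (GRCm38.p6) were at hand for 8 of the 10 members, all but Nfkbiz and Relb. In the 250 bases before the start site, the kB consensus (G, G, G, a purine, any base, any base, a pyrimidine, a pyrimidine, C, C, on either strand, overlapping matches counted apart) was present in 3 of the 8, while 8.23% of all 27025 genes had a window that held it (7.25% of 32851 windows). The windows of Nfkbia, Tnf and Icam1 are shown because these 3 members changed with exposure in at least 1 cell type, and that of Il6 because its expression was concentrated in 1 cell type. Capitals mark kB matches, and sequences read 5′ to 3′ on the strand of the gene:
Nfkbia, chr12:55492648-55492897, minus strand: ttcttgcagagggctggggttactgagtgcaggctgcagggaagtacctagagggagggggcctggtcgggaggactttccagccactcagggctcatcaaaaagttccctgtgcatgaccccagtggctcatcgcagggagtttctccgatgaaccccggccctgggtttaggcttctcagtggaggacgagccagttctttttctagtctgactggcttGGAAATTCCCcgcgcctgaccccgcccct
Il6, chr5:30012864-30013113, plus strand: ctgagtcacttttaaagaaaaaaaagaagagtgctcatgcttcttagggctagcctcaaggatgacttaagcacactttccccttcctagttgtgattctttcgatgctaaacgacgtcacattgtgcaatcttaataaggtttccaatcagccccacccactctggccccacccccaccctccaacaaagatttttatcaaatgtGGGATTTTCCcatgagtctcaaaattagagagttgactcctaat
Tnf, chr17:35202008-35202257, minus strand: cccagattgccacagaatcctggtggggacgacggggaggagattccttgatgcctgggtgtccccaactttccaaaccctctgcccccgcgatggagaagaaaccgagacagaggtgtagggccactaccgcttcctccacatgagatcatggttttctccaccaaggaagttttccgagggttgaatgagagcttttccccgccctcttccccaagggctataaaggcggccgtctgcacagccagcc
Icam1, chr9:21015690-21015939, plus strand: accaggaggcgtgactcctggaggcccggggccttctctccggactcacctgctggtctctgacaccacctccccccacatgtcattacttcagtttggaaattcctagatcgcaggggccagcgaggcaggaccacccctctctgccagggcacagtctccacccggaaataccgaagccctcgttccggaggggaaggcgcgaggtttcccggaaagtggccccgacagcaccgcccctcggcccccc
The match began 29 bases before the start site in Nfkbia and 44 bases before it in Il6. The windows of Tnf and Icam1 held none, as did those of Zfp36, Birc3 and Il1b, which says only that these letters are not in the 250 bases shown or searched. Tnfaip3 had 2 matches in its first window, at 125 and 12 bases before the start site, and none in its second.

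After removal of 1025 multiplets and 7 cells labelled cell cycle, 40074 cells remained, 20330 from CS and 19744 from RA mice, at 2553 to 6371 cells per library (31882952 to 55485617 transcripts). The authors' labels gave 32 cell types, of which 22 had at least 20 cells in at least 3 mice of each exposure and were tested. Among the deposited cells, 197 cell barcodes occurred in more than 1 library. The labelled sex went against Xist and Ddx3y in 4 libraries, all of them CS (Xist 7.83 and 8.34 in 2 labelled male, Ddx3y 0.925 and 1.08 in 2 labelled female), so sex was not used to group mice. Alveolar macrophages and classical monocytes were few, at 31 to 112 and 51 to 129 cells per mouse. The cells labelled mast contained Mcpt8 (6.57), Cpa3 (6.87) and Ms4a2 (4.71), whereas the mast cell transcripts Cma1 (0.0250), Mcpt4 (0 in every mouse) and Kit (0.113) were absent or near absent. They are called by their label below, and RA mouse 1, which had 6 of them, was left out there.

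Where each member was expressed was examined first, among the 22 types tested. The other types, dendritic cells and interstitial macrophages among them, were not ranked. Nfkbia was highest in neutrophils (52.9 ± 17.4, SD over 8 mice) and in the cells labelled mast (50.1 ± 7.10, n = 7). These were not separated over the mice of both exposures together (exact sign-flip test, 7 mice, p = 0.953). The sign of the difference varied. Neutrophils were the lower type in CS mice 1 and 2, and the higher in CS mice 3 and 4 and in RA mice 2 to 4. Nfkbiz, a nuclear IkB protein that directs a subset of secondary response genes, had the same leading types (22.2 ± 2.08 in cells labelled mast and 18.4 ± 4.09 in neutrophils; exact p = 0.188). Tnfaip3, a ubiquitin-editing enzyme that ends signaling to IKK, was 23.7 ± 0.818 in cells labelled mast, above neutrophils (8.40 ± 3.11; exact p = 0.0156, the smallest that 7 mice allow), followed by T cells (5.59 ± 0.664). Zfp36 (tristetraprolin), which binds AU-rich elements and destabilizes cytokine mRNA, was also highest in cells labelled mast (12.6 ± 2.44) and next in neutrophils (8.79 ± 2.03; exact p = 0.0156). For these 4 genes the leading pair was the same, and peribronchial fibroblasts came next for Nfkbia (16 ± 2.75, n = 6), Nfkbiz (7.17 ± 2.44) and Zfp36 (7.66 ± 1.41). Neutrophils and peribronchial fibroblasts were not separated for Zfp36 (exact p = 0.406), nor were peribronchial fibroblasts and venous endothelium for Nfkbia (exact p = 0.656), whose order turned with summed counts. For Nfkbiz, peribronchial fibroblasts were not separated from non-classical monocytes (7.12), with a mean difference of -0.669 over 5 mice (exact sign-flip p = 0.688). In the 6 mice with enough peribronchial fibroblasts (CS 2 to 4 and RA 1 to 3), Nfkbia was 17.3, 12.2 and 15.2 in CS and 20.4, 14.7 and 16.1 in RA mice. Nfkbiz was 7.24, 3.70 and 9.62 in CS and 6.65, 5.63 and 10.2 in RA mice, and Zfp36 8.90, 6.37 and 7.64 in CS and 6.58, 6.68 and 9.80 in RA mice. The exposures overlapped for all 3 genes. Tnfaip3 in T cells overlapped too, at 4.86, 6.10, 6.69 and 5.80 in CS and 5.93, 4.87, 5.50 and 4.97 in RA mice.

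The adhesion, survival and subunit genes had other leading types. Icam1 was 21.6 ± 6.76 in venous endothelium and 16.8 ± 2.12 in alveolar type 1 (AT1) cells, a pair not separated by the test (exact sign-flip p = 0.109, 8 mice). The thin AT1 cells, which form the gas exchange surface, exceeded the next type, arterial endothelium (9.74 ± 4.57; exact p = 0.0156). Birc3 (cIAP2), an inhibitor of apoptosis that ubiquitinates signaling adaptors, was highest in cells labelled mast (6.34 ± 1.88) and neutrophils (6.08 ± 1.43), which were not separated (exact p = 0.375), and then in B cells (4.37 ± 0.780; below neutrophils, exact p = 0.0156). Relb, the subunit of the alternative NF-kB pathway, was low in the 22 types tested. Its highest means were 1.82 ± 0.377 in peribronchial fibroblasts, 1.51 ± 0.319 in lymphatic and 1.45 ± 0.207 in venous endothelium. No step was seen between these neighbors (exact sign-flip p = 0.281 and 0.930), nor from venous endothelium to B cells (1.44 ± 0.249, exact p = 0.922). With summed counts B cells ranked 2 and lymphatic endothelium 5. Relb values were 1.47, 1.99 and 2.15 in CS and 1.23, 1.96 and 2.11 in RA mice in peribronchial fibroblasts. They were 1.16, 1.48, 1.31 and 1.39 in CS and 1.60, 1.46, 2.24 and 1.46 in RA mice in lymphatic and 1.09, 1.56, 1.32 and 1.61 in CS and 1.59, 1.5, 1.25 and 1.69 in RA mice in venous endothelium, and the exposures overlapped in each type. Birc3 in B cells overlapped as well (5.0, 3.79, 3.74 and 4.87 in CS and 3.13, 4.28, 4.64 and 5.49 in RA mice).

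Cytokine transcripts were high in few types, in a steep order. Il1b was 109 ± 26.1 in neutrophils, 60.6 ± 17.5 in cells labelled mast, 12.2 ± 2.44 in non-classical and 11.5 ± 6.90 in classical monocytes, and 1.37 ± 0.721 in alveolar macrophages. Each of these steps passed the sign-flip test (exact p = 0.0156, 0.0156 and, from classical monocytes to alveolar macrophages, 0.00781, the smallest that 8 mice allow) except that between the monocyte types (exact p = 0.0625). Il6, a cytokine of the acute phase and of B cell help, was highest in cells labelled mast (36.3 ± 5.80), followed by adventitial fibroblasts (2.03 ± 0.716; exact p = 0.0156) and alveolar fibroblasts (0.426 ± 0.247; exact p = 0.00781). Tnf was 7.13 ± 3.59 in alveolar macrophages and 6.14 ± 2.57 in neutrophils, without a step between them (exact p = 0.305; CS means 4.12 and 4.2), and 2.45 ± 1.54 in classical monocytes (exact p = 0.00781).

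**Figure D1:**
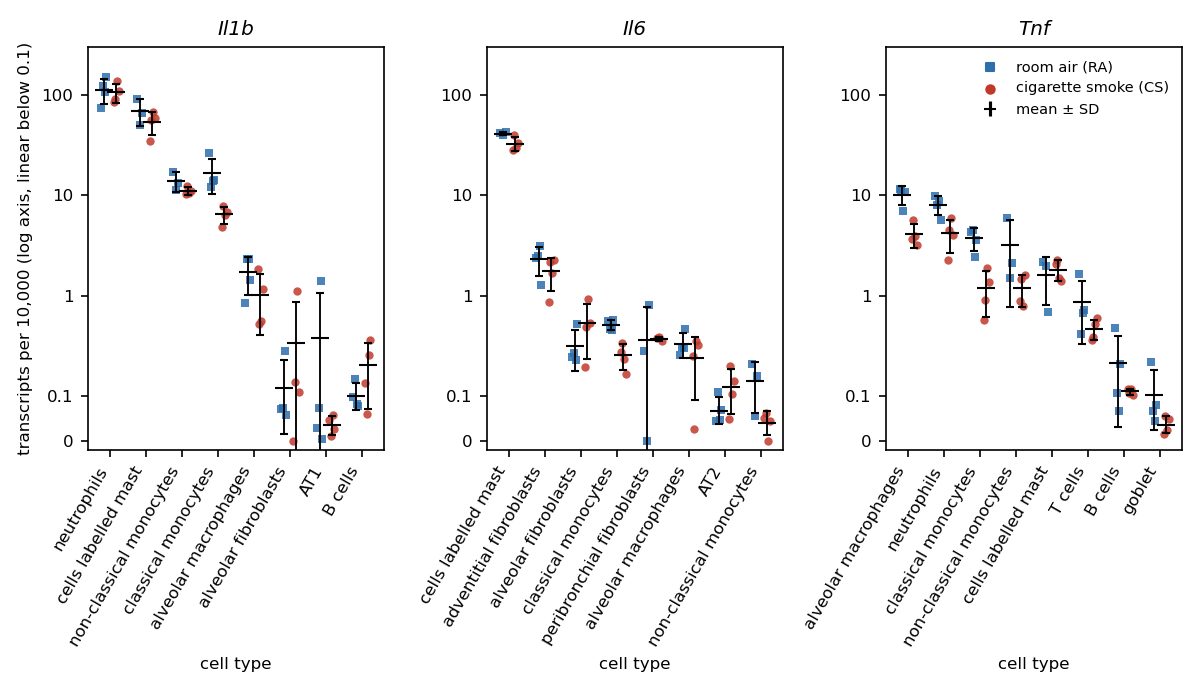
Levels of Il1b, Il6 and Tnf in the 8 cell types with the highest mean, in transcripts per 10,000 on a log axis that is linear below 0.1; each point is 1 mouse with at least 20 cells of the type, and lines are the mean ± SD of a group. Neutrophils lead for Il1b (109), cells labelled mast for Il6 (36.3) and alveolar macrophages (7.13) and neutrophils (6.14) are not separated for Tnf.

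Shares of cells with a cytokine transcript were also compared. With each cell thinned to 2000 transcripts, a mean of 99.6% of neutrophils from CS and 97.6% from RA mice had Il1b, compared with 0.980% and 1.35% of general capillary endothelial (gCap) cells. Neutrophils were shallow (median 2098 transcripts in CS and 2446 in RA mice), and thinning left out 273 of their CS and 204 of their RA cells. Il6 was found in 85.1% and 90.2% of the cells labelled mast, and in 0.131% and 0.149% of gCap cells. Tnf was found in 34.4% of alveolar macrophages from CS and 55.4% from RA mice, and in 0.221% and 0.265% of gCap cells. The share of neutrophils with Tnf was 36.1% in CS and 51.0% in RA mice, and the CS mice of both types overlapped. The unthinned shares of alveolar macrophages with Tnf were 49.6% and 75.0% (neutrophils 39.6% and 57.9%), at median depths of 5087 and 5908 transcripts, and gCap cells had median depths of 3938 and 3713. Thinning left out 22 of the CS and 6 of the RA alveolar macrophages.

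Over the 22 types, the genes most like each member were sought by the Pearson correlation of log2 mean levels among 14928 genes. These are descriptions, since types differ in depth and come from the same libraries. Nfkbia and Nfkbiz both followed Kdm6b, a histone demethylase (r = 0.926 and 0.933), and each other (r = 0.911). Next came, for Nfkbia, Sde2 (r = 0.864) and, for Nfkbiz, Zfp36 (r = 0.868). Birc3 followed Nfkb2, the precursor of the p52 subunit (r = 0.942), Abtb2 (r = 0.894) and Bcl10 (r = 0.870), and Icam1 followed Pim3 (r = 0.869), Rela, the p65 subunit (r = 0.777), and Ehd2 (r = 0.770). Il1b was closest to Slc2a6 (r = 0.986), Thap6 (r = 0.980) and Nlrp3, the inflammasome sensor (r = 0.972). Tnf was closest to Clec7a, the beta-glucan receptor (r = 0.946), Cxcl2, a neutrophil chemokine (r = 0.943), and Taldo1 (r = 0.937). Il6 was closest to Ddias (r = 0.976), Scin (r = 0.966) and P2ry1 (r = 0.958), and Tnfaip3 to Dgat1 (r = 0.935), Gm34086 (r = 0.921) and the chemokine Ccl4 (r = 0.920). Zfp36 was most like Nfkbiz, Ier5 (r = 0.853) and Nfkbia (r = 0.845), and Relb most like Sf3b1 (r = 0.821), Med13 (r = 0.819) and Ksr1 (r = 0.815).

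The effect of smoke on the members was then tested within each type over mice. Of 171 combinations of a member and a type in which the gene was found in at least 10% of cells of either group, 6 were significantly lower and 1 higher in CS mice (limma, Benjamini-Hochberg adjusted p under 0.05 over all genes of a type). Over all genes, 0.518% of 172262 gene and type combinations were called lower and 0.712% higher. The 6 decreases were in alveolar macrophages (Nfkbia, Nfkbiz, Icam1 and Tnf) and gCap cells (Nfkbia and Icam1), and the increase was in ciliated cells (Icam1). The log2 difference was negative in 107 and positive in 64 of the 171. At an unadjusted p under 0.05, 44 were lower and 6 higher, against 6.30% and 8.92% of all combinations. The CS and RA mice did not overlap in 23 combinations that were lower and 3 that were higher, against a background of 4.67% and 6.01%. Nfkbia alone gave 21 of the negative differences, 14 of the 44 and 8 of the 23. Tnfaip3 was negative in 12 types and positive in 8 (median -0.0173). Nfkbiz (13 and 9), Relb (13 and 9), Zfp36 (12 and 10), Icam1 (9 and 13) and Birc3 (11 and 10) were also mixed. Il1b, Il6 and Tnf, tested in 7, 6 and 7 types, were negative in 6, 4 and 6. The combinations are not independent, since all types come from the same 8 mice. Some passed the 10% limit by the mean share of 1 exposure only, which favored a higher level in that exposure. Examples are Il6 in alveolar macrophages and classical monocytes (RA only) and Tnfaip3 and Il6 in alveolar fibroblasts (CS only). Such combinations were kept in the counts of the 171.

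**Figure D2:**
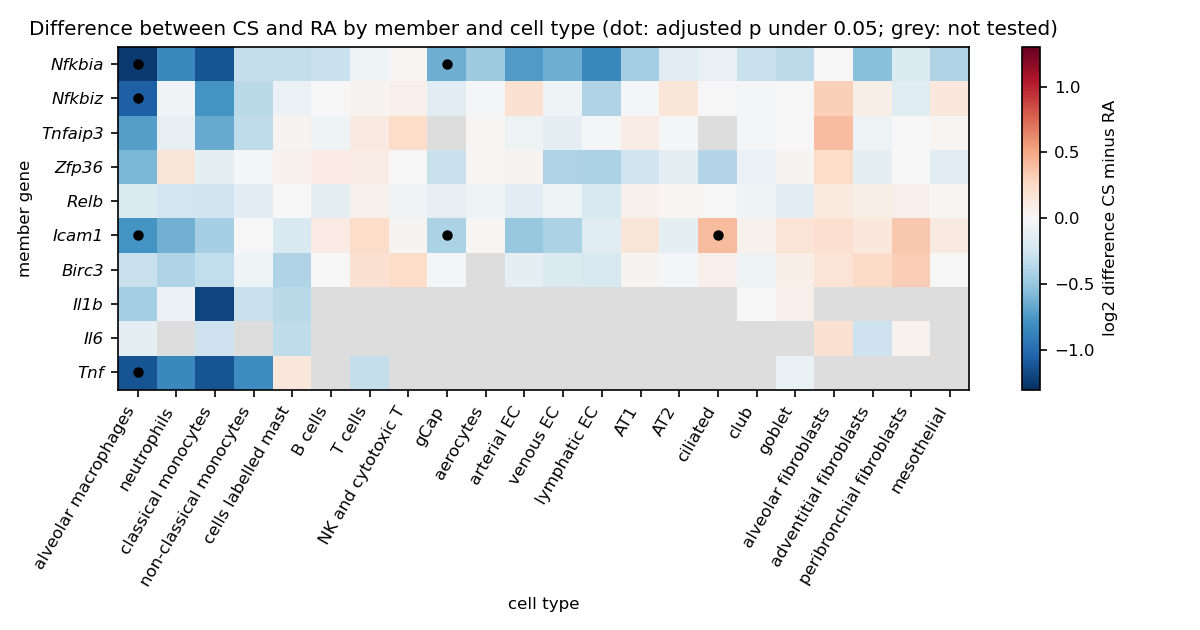
Log2 difference between CS and RA mice (color, from -1.3 to 1.3) for the 10 members (rows) in 22 cell types (columns), with a dot where the adjusted p was under 0.05 and grey where the gene was not tested. The 7 dots lie in alveolar macrophages (4), gCap cells (2) and ciliated cells (1), and the Nfkbia row is negative in 21 of 22 types.

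Alveolar macrophages, the resident phagocytes of the airspace, had all 10 members at a lower mean in CS mice, and 4 of the 10 were significantly lower, while 0.291% of the 7554 genes tested in this type were called lower. Of these 10, Il6 was found in a mean of 8.09% of CS and 13.6% of RA cells. Only the RA mean passed the 10% limit for testing, which favored a lower sign of Il6 in CS mice. Nfkbia was 5.74, 7.0, 6.49 and 7.87 in CS mice and 22.3, 17.2, 13.5 and 17.2 in RA mice. Every CS mouse was below every RA mouse, and the CS mean was 0.386 of the RA mean (log2 difference -1.24 ± 0.17 SE, adjusted p = 0.00155; exact permutation p = 0.0286, the smallest that 4 against 4 mice allow). Tnf, which encodes the cytokine that itself activates NF-kB, was 3.66, 5.71, 3.92 and 3.19 in CS mice and 11.5, 11.4, 6.95 and 10.8 in RA mice. Here too the groups did not overlap, RA mouse 3 being the lowest of its group, and the difference was -1.12 ± 0.19 (adjusted p = 0.00681).

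Nfkbiz in the same cells was 0.384, 1.74, 1.38 and 2.58 in CS and 5.64, 4.75, 3.23 and 2.82 in RA mice. The highest CS mouse lay just below the lowest RA mouse (difference -1.06 ± 0.23, adjusted p = 0.0434). Icam1 was 0.792, 1.2, 1.27 and 1.94 in CS and 2.76, 3.48, 1.92 and 3.69 in RA mice, and the groups overlapped through CS mouse 4 and RA mouse 3 (-0.78 ± 0.17, adjusted p = 0.0465; exact permutation p = 0.0571). Tnfaip3 was 0.830, 1.80, 1.79 and 2.43 in CS and 3.67, 3.66, 2.89 and 3.23 in RA mice, which did not overlap, but the test was not passed (-0.72 ± 0.17, adjusted p = 0.0624). Zfp36 also separated the groups without passing (4.93, 3.39, 5.34 and 3.55 in CS and 6.51, 5.91, 7.01 and 8.34 in RA mice, adjusted p = 0.132). In total the groups did not overlap in 5 of the 10 members, all lower, compared with 2.55% of all genes in this type.

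The other 4 members in alveolar macrophages overlapped between groups. Relb was 0.134, 0.308, 0.325 and 0.468 in CS and 0.452, 0.593, 0.497 and 0.354 in RA mice (adjusted p = 0.612). Birc3 was 0.321, 0.456, 0.0356 and 0.654 in CS and 0.663, 0.644, 0.551 and 0.730 in RA mice (adjusted p = 0.459). Il1b, a cytokine made as an inactive precursor, was 1.82, 0.526, 0.557 and 1.16 in CS and 0.849, 2.31, 2.29 and 1.44 in RA mice (adjusted p = 0.469). None of these 3 passed, nor did Il6, which was low in these cells (0.25, 0.0257, 0.350 and 0.325 in CS and 0.254, 0.306, 0.301 and 0.470 in RA mice, adjusted p = 0.762).

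Among other pathway genes of the macrophages, 2 cytokine-related genes fell, the cytokine Il1a (0.283 to 1.91 in CS and 2.46 to 3.55 in RA mice, -1.20 ± 0.20, adjusted p = 0.00681) and the inflammasome sensor Nlrp3 (0.536 to 2.66 and 2.55 to 5.36, -1.17 ± 0.23, adjusted p = 0.0188). They were the 2 called of 8 tested in a list of other cytokines, their processing and their antagonists. None of the 8 other NF-kB subunits and IkB proteins tested was called, although all 8 had a negative difference (median -0.33). Of 14 immediate-early and stress genes known to rise during tissue digestion, 1 was lower, Egr1 (1.83 to 3.55 and 10.5 to 13.5, -1.71 ± 0.17, adjusted p = 3.38e-05). Their summed level was 62.6 to 79.7 in CS and 75.4 to 102 in RA mice, which overlapped, and its part in the result was not tested. The summed levels of 4 alveolar macrophage markers overlapped (158 to 202 and 133 to 312), while the 3 gCap markers, near 0 in these cells, were higher in CS (0.685 to 1.54 and 0.178 to 0.654). The decrease of Nfkbia kept its call without each single mouse (adjusted p 0.000398 to 0.0152). The call of Tnf was lost without CS mouse 1 (adjusted p = 0.0623), and those of Nfkbiz and Icam1 in 5 and 6 of the 8 cases (adjusted p up to 0.144 and 0.182).

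**Figure D3:**
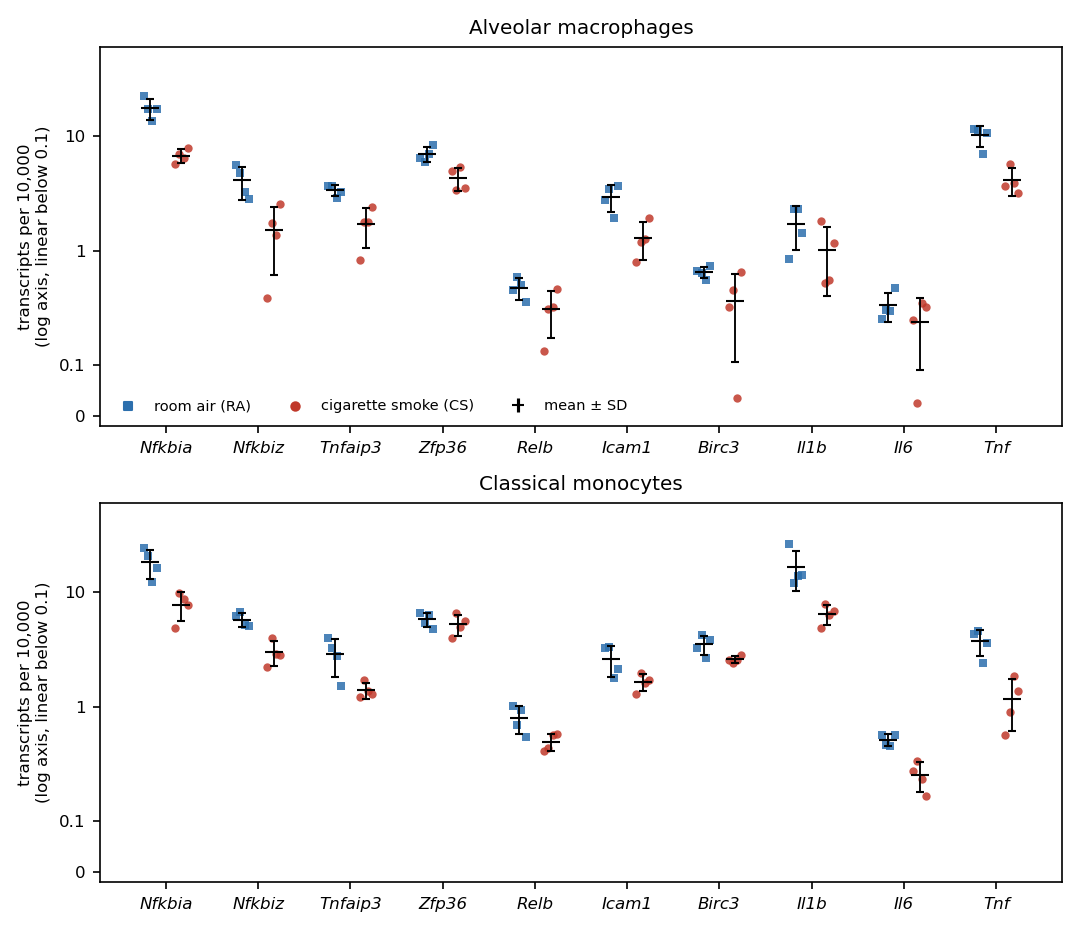
Levels of the 10 members per mouse in alveolar macrophages (top) and classical monocytes (bottom), in transcripts per 10,000 on a log axis that is linear below 0.1; squares are RA and circles CS mice, lines the mean ± SD. The CS mice lie below the RA mice for Nfkbia and Tnf in both types, with means of 6.77 and 17.5 for Nfkbia in macrophages.

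Classical monocytes, the circulating precursors of tissue macrophages, resembled the macrophages in sign. All 10 members had a lower mean in CS mice, but none passed the test. In this type limma called 0 of 6998 genes, with 712 at an unadjusted p under 0.05 and 9 of the 10 members among them, all lower, against 3.76% of all genes. Nfkbia was 4.87, 9.92, 8.66 and 7.75 in CS and 24.1, 20.5, 12.3 and 16.1 in RA mice (log2 difference -1.12 ± 0.21, adjusted p = 0.118). Il1b was 4.83, 7.81, 6.34 and 6.82 in CS and 26.1, 12.1, 14.0 and 14.3 in RA mice (-1.20 ± 0.21, adjusted p = 0.0876). Both separated the groups completely, and the CS mean of Il1b was 0.388 of the RA mean.

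Tnf in monocytes was 0.568, 0.907, 1.87 and 1.38 in CS and 4.32, 4.54, 2.41 and 3.60 in RA mice (-1.13 ± 0.19, adjusted p = 0.0876). Nfkbiz was 2.24, 4.00, 2.91 and 2.80 in CS and 6.19, 6.65, 5.18 and 5.06 in RA mice (-0.77 ± 0.14, adjusted p = 0.103). With Il6 (0.166 to 0.339 and 0.458 to 0.567, adjusted p = 0.288), these were the 5 members without overlap, compared with 2.37% of all genes tested. Il6 was found in a mean of 7.97% of CS and 16.6% of RA monocytes. Only the RA mean passed the limit for testing, which favored a lower sign of Il6 in CS mice. This bears on each count of members given for classical monocytes, since Il6 is in all of them. Tnfaip3 (1.23 to 1.71 and 1.51 to 4.00), Icam1 (1.28 to 1.95 and 1.77 to 3.33), Relb (0.409 to 0.574 and 0.543 to 1.02) and Birc3 (2.40 to 2.81 and 2.67 to 4.21) each overlapped through 1 RA mouse, and Zfp36 overlapped widely (3.95 to 6.54 and 4.76 to 6.59, adjusted p = 0.796). RA mouse 1 stood apart in these cells, with Chil3, a chitinase-like protein of macrophages and monocytes, at 237 compared with 5.74 to 30.6 in the other 7 mice, while the macrophage marker Ear2 was 2.17 in it and Marco and Krt79 were at 0. Without that mouse the difference of Il1b was -0.97 ± 0.14 and passed (adjusted p = 0.0338), and that of Nfkbia was -0.98 ± 0.20 (adjusted p = 0.17). Il1b passed only in this 1 of 8 omissions of a single mouse, and in 0 of 12 other settings (limma, adjusted p 0.0682 to 0.418). The summed level of 3 classical monocyte markers was 26.1 to 28.1 in CS and 18.4 to 25.2 in RA mice, and the part of either measure in these results was not tested.

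Neutrophils, which held the highest Il1b, had 9 members tested and none called. In this type limma called 0 of 2819 genes, with 378 at an unadjusted p under 0.05. Nfkbia was 22.9, 34.0, 52.6 and 45.9 in CS and 70.3, 62.6, 65.4 and 69.3 in RA mice, without overlap (-0.83 ± 0.21, adjusted p = 0.178). Tnf was 2.26, 4.50, 5.98 and 4.04 in CS and 9.78, 7.99, 8.85 and 5.70 in RA mice, overlapping by CS mouse 3 and RA mouse 4 (-0.84 ± 0.21, adjusted p = 0.188). In contrast, Il1b was 85.6, 91.5, 138 and 108 in CS and 73.3, 122, 107 and 150 in RA mice, within the spread between mice (-0.07 ± 0.20, adjusted p = 0.921). Nfkbiz was 12.9, 16.8, 19.6 and 23.1 in CS and 13.7, 16.5, 23.8 and 20.9 in RA mice, and Tnfaip3 was 4.41, 5.57, 11.5 and 11.3 in CS and 5.74, 7.28, 12.5 and 8.85 in RA mice. Zfp36 was 7.72, 7.07, 11.3 and 11.2 in CS and 5.78, 7.77, 9.26 and 10.1 in RA mice, and Birc3 was 4.36, 4.47, 4.6 and 7.31 in CS and 6.31, 6.53, 6.97 and 8.09 in RA mice. All 4 overlapped, whereas Icam1 did not (2.94 to 5.72 and 6.11 to 8.40, adjusted p = 0.208). Nfkbia and Icam1 were the 2 of 9 members lower without overlap, compared with 2.55% of all genes in this type. The summed digestion-response genes overlapped in neutrophils (114 to 165 and 103 to 153).

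In the cells labelled mast, the 3 RA mice with enough cells had Nfkbia at 53.5, 53.1 and 62.5, and the CS mice at 46.0, 40.7, 49.5 and 45.4 (-0.31 ± 0.11, adjusted p = 0.540). Il6, which was highest in these cells, was 28.4, 39.5, 29.5 and 33.3 in CS and 41.5, 39.6 and 42.3 in RA mice. All CS mice were below the RA mice, CS mouse 2 by little, and the difference did not pass (-0.33 ± 0.13, adjusted p = 0.545; exact permutation p = 0.0571). Il1b was 34.5, 56.1, 67.4 and 58.2 in CS and 91.3, 50.1 and 66.5 in RA mice, and Birc3 was 3.70, 4.43, 5.99 and 8.02 in CS and 6.42, 6.74 and 9.07 in RA mice. Nfkbiz was 22.8, 24.9, 19.0 and 19.9 in CS and 21.9, 23.2 and 23.4 in RA mice, and Tnfaip3 was 23.4, 23.2, 24.4 and 25.1 in CS and 22.9, 23.0 and 24.1 in RA mice. Zfp36 was 11.6, 11.8, 11.5 and 16.3 in CS and 8.93, 13.6 and 14.8 in RA mice. These 5 members overlapped between exposures. Nfkbia and Il6 were the 2 of 10 members lower without overlap, compared with 3.13% of all genes in this type. In non-classical monocytes, Il1b was 10.3, 12.4, 10.4 and 10.9 in CS and 17.2, 11.2 and 13.2 in RA mice 2 to 4 (adjusted p = 0.796).

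General capillary endothelial cells, the most numerous type with 4812 CS and 5176 RA cells, had 6 members tested. All 6 had a negative difference, and Nfkbia and Icam1 were significantly lower, where 3.97% of 6556 genes were called lower. Nfkbia was 4.83, 5.27, 5.11 and 5.19 in CS and 9.48, 8.73, 7.24 and 8.47 in RA mice. The CS mice were close together, all below the RA mice, and the CS mean was 0.601 of the RA mean (-0.63 ± 0.098, adjusted p = 0.0155). Icam1, the ligand of leukocyte integrins, was 3.11, 3.52, 2.59 and 2.88 in CS and 4.54, 4.98, 3.75 and 4.15 in RA mice, again without overlap (-0.41 ± 0.10, adjusted p = 0.0365).

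Zfp36 also separated the gCap groups (2.64, 2.41, 2.18 and 1.87 in CS and 3.63, 3.04, 2.66 and 2.65 in RA mice) but did not pass (adjusted p = 0.0846). Thus 3 of the 6 members did not overlap, compared with 11.0% of all genes in this type. Nfkbiz was 2.28, 1.64, 1.79 and 1.19 in CS and 2.16, 2.80, 1.51 and 1.61 in RA mice. Relb was 0.490, 0.880, 0.634 and 0.661 in CS and 0.971, 0.897, 0.698 and 0.614 in RA mice, and Birc3 was 0.645, 0.511, 0.692 and 0.801 in CS and 0.633, 0.752, 0.696 and 0.680 in RA mice. These 3 overlapped. With the sequencing lane as a block, limma called 0 of the 6556 gCap genes (672 without it), so the calls of Nfkbia and Icam1 were lost (adjusted p = 0.0646 and 0.0831) at the same log2 differences. Without CS mouse 4 the count was also 0, and without single mice they were lost in 4 cases (CS mice 1, 3 and 4 and RA mouse 2) and 5 cases (the same and RA mouse 4) of 8.

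Other pathway genes of gCap cells were called in both directions, and these calls too were lost with the lane block and without CS mouse 4. Of the 6556 genes tested in this type, 412 were called higher and 260 lower. Nfkb1, the precursor of the p50 subunit, was higher in CS (2.62 to 2.84 compared with 1.70 to 2.26, 0.30 ± 0.074, adjusted p = 0.0374), as were Il1r1, the interleukin-1 receptor (0.701 to 1.01 and 0.338 to 0.666, adjusted p = 0.0489), and the kinase Map3k7 (0.514 to 0.664 and 0.366 to 0.451, adjusted p = 0.0296). Of 6 other well-known targets tested, 3 fell, namely Ier3 (9.01 to 12.9 and 14.0 to 26.6, -0.72 ± 0.18, adjusted p = 0.0392), Socs3, an inhibitor of cytokine signaling (0.971 to 1.44 and 2.12 to 2.80, -0.65 ± 0.091, adjusted p = 0.0129), and Gadd45b (0.90 to 1.47 and 1.26 to 2.26, -0.44 ± 0.12, adjusted p = 0.0487). The summed level of the 14 digestion-response genes was 57.6 to 92.3 in CS and 118 to 160 in RA mice, without overlap, with 6 of the 14 called lower and none higher, among them Atf3 (-1.01 ± 0.26, adjusted p = 0.0422) and Junb (-0.74 ± 0.19, adjusted p = 0.0404). This moved with Nfkbia and Icam1, and its part in their decrease was not tested. The summed level of 3 gCap markers was 28.0 to 33.0 in CS and 36.9 to 42.3 in RA mice, and 1 of the 3 was called lower.

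**Figure D4:**
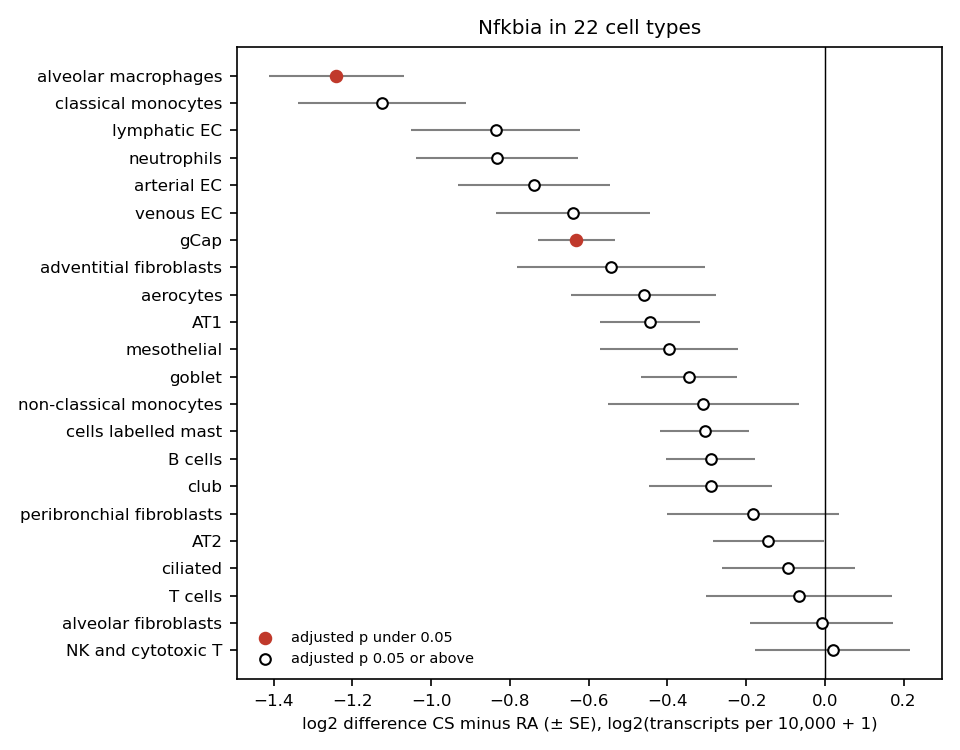
Log2 difference of Nfkbia between CS and RA mice (± SE) in the 22 cell types tested, ordered from the most negative; filled points have an adjusted p under 0.05. Values run from -1.24 in alveolar macrophages to 0.02 in NK and cytotoxic T cells.

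The difference of Nfkbia was negative in 21 of 22 types (median -0.37), with 2 called. Of the 1704 genes tested in all 22 types, 69 were negative in at least 21 (4.05%), and by the median over types Nfkbia ranked 10 from the lowest. The groups did not overlap in 8 types, which besides those above were lymphatic endothelium (4.54 to 8.58 in CS and 9.51 to 20.8 in RA mice, adjusted p = 0.208), venous endothelium (7.30 to 15.2 and 15.9 to 20.2, adjusted p = 0.179) and goblet cells (1.02 to 1.41 and 1.51 to 2.38, adjusted p = 0.283). Across these 8 types, 1.275% (goblet cells) to 11.0% (gCap cells) of all genes were lower without overlap. Non-overlap in as many types was not counted for other genes. AT2 cells were not among the 8 types (1.60, 2.36, 2.97 and 3.42 in CS and 2.78, 3.22, 2.9 and 2.66 in RA mice, -0.14 ± 0.14, adjusted p = 0.856). Alveolar fibroblasts (2.97 to 6.73 and 4.33 to 6.09, -0.01 ± 0.18) and NK and cytotoxic T cells (0.02 ± 0.20) had differences near 0. Over the same 22 types, the digestion-response genes were negative in 216 of 305 combinations and positive in 89. Their part in the Nfkbia differences was not tested.

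Whether the effect differed between types was tested on the difference between types within each mouse, for 7 pairs of types. The decrease of Nfkbia was larger in alveolar macrophages than in gCap cells, the difference of the effects being 0.61 ± 0.12 on the log2 scale (limma, adjusted p = 0.0287), while 0.663% of 5429 genes were called in this comparison. It was the 1 call among 44 combinations of a member and a pair. The call was lost with the sequencing lane as a block (adjusted p = 0.0589), with a pseudocount of 0.1 (adjusted p = 0.243) and without any single mouse other than CS mouse 4 or RA mouse 3 (adjusted p up to 0.107). Next by adjusted p was Icam1, with an effect in gCap cells minus that in alveolar fibroblasts of -0.61 ± 0.11, which did not pass (adjusted p = 0.0578).

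Icam1 was called in both directions, with a negative difference in 9 types and a positive one in 13. In ciliated cells of the airway it was 0.582, 0.819, 0.766 and 0.856 in CS and 0.174, 0.526, 0.283 and 0.317 in RA mice. All CS mice exceeded all RA mice, and the CS mean was 2.33 times the RA mean at a low level (0.41 ± 0.074, adjusted p = 0.0167), where 2.72% of 11077 genes were called higher. At 2000 transcripts per cell, a mean of 10.5% of ciliated cells from CS and 5.35% from RA mice had Icam1. These shares overlapped between the groups (7.79% to 13.55% in CS and 2.87% to 8.05% in RA mice). Leaving out CS mouse 4 ended the call (adjusted p = 0.0586). Ciliated cells also had higher Nfkb1 (1.17 to 1.42 and 0.830 to 1.06, adjusted p = 0.0356) and Ikbkg, the regulatory subunit of IKK (0.387 to 0.552 and 0.276 to 0.362, adjusted p = 0.0282). The digestion-response genes summed to 62.3 to 145 in CS and 110 to 163 in RA mice there, with 3 of 14 called lower, where 1.91% of all genes tested were called lower. For Nfkbia no difference was detected in ciliated cells (1.56, 2.57, 1.98 and 2.45 in CS and 3.79, 2.34, 1.70 and 1.80 in RA mice, -0.09 ± 0.17), and Zfp36 separated the groups downward without passing (1.60 to 2.59 and 2.80 to 3.46, adjusted p = 0.0546). Of all genes tested in ciliated cells, 6.65% were lower and 9.28% higher without overlap.

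In the 3 types with the most Icam1 and in AT2 cells, no difference was detected at this spread between mice. Venous endothelium had 10.0, 17.8, 24.4 and 22.5 in CS and 17.0, 23.7, 24.8 and 32.9 in RA mice (-0.41 ± 0.26, adjusted p = 0.484). AT1 cells had 19.8, 17.1, 16.4 and 17.4 in CS and 13.3, 15.3, 15.6 and 19.2 in RA mice (0.16 ± 0.13, adjusted p = 0.563). Arterial endothelium had 4.31, 6.2, 9.48 and 11.6 in CS and 8.67, 9.95, 8.10 and 19.6 in RA mice (adjusted p = 0.394), and AT2 cells 3.95, 3.42, 4.11 and 3.96 in CS and 3.69, 5.20, 3.76 and 4.71 in RA mice (adjusted p = 0.842). The groups overlapped in all 4.

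**Figure D5:**
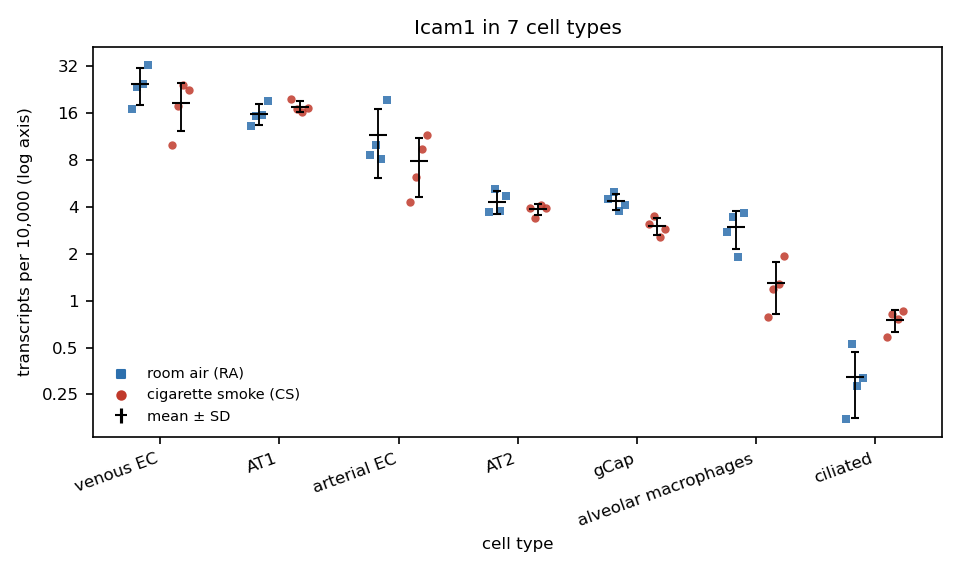
Icam1 per mouse in 7 cell types, in transcripts per 10,000 on a log axis; squares are RA and circles CS mice, lines the mean ± SD. The groups separate downward in gCap cells (means 3.03 and 4.35) and upward in ciliated cells (0.756 and 0.325), and overlap in the other types shown.

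Alveolar fibroblasts, which support the alveolar wall, had a positive difference in 7 of 8 members tested, with none called (median 0.20). Of the 8329 genes tested in this type, 1.37% were called and 50.8% had a positive difference. Tnfaip3 was found in a mean of 17.8% of CS and 9.3% of RA cells, and Il6 in 11.7% and 7.2%. Only their CS means passed the limit for testing, which favored a positive sign of both in the count and median of the members. Nfkbiz was 6.26, 5.59, 5.54 and 6.2 in CS and 3.8, 5.09, 4.75 and 4.62 in RA mice, without overlap (0.31 ± 0.11, adjusted p = 0.132). It was the 1 of 8 members that did not overlap, while 6.70% of all genes were higher without overlap. Tnfaip3 was 0.192, 0.523, 0.717 and 1.11 in CS and 0.256, 0.164, 0.396 and 0.0672 in RA mice, overlapping by CS mouse 1 (0.40 ± 0.14, adjusted p = 0.126). Il6 was 0.194, 0.483, 0.928 and 0.529 in CS and 0.248, 0.267, 0.230 and 0.528 in RA mice (adjusted p = 0.320). Adventitial fibroblasts, with more Il6, had 0.873, 2.15, 1.67 and 2.29 in CS and 2.37, 2.50, 3.10 and 1.28 in RA mice (-0.27 ± 0.19, adjusted p = 0.433). Neither fibroblast type separated the groups for Il6.

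AT2 cells, the surfactant-producing cells that the reporter marks, had 7 members tested and none with an unadjusted p under 0.05. Over the 9032 genes tested there, 7.43% had one and limma called 0. Nfkbiz was 1.26, 1.43, 1.59 and 1.79 in CS and 0.986, 1.60, 1.18 and 1.26 in RA mice (0.16 ± 0.091, adjusted p = 0.741), and Zfp36 was 1.79, 1.55, 2.14 and 1.73 in CS and 1.78, 2.15, 2.15 and 2.0 in RA mice (-0.11 ± 0.080, adjusted p = 0.787). Tnfaip3 was 0.0137, 0.0789, 0.139 and 0.191 in CS and 0.0890, 0.132, 0.148 and 0.135 in RA mice. Relb was 0.0998, 0.269, 0.335 and 0.236 in CS and 0.197, 0.251, 0.198 and 0.205 in RA mice, and Birc3 was 0.396, 0.465, 0.554 and 0.745 in CS and 0.519, 0.657, 0.632 and 0.443 in RA mice. These 3 were low and overlapped. The cytokines were found in too few AT2 cells to be tested.

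Calls in the rest of the pathway were counted by list over the 22 types, where 0.518% of all combinations were called lower and 0.712% higher. The other subunits and IkB proteins gave 155 combinations with 2 called higher (Nfkb1 in gCap and ciliated cells) and none lower, with 107 negative. Kinases and adaptors upstream gave 344, with 4 higher and 1 lower. Besides Map3k7 in gCap and Ikbkg in ciliated cells, these were Ikbkb in ciliated cells (0.203 to 0.245 and 0.130 to 0.175, 0.076 ± 0.019, adjusted p = 0.0495), Traf1, lower in AT1 cells (1.13 to 1.80 and 1.88 to 2.39, -0.43 ± 0.095, adjusted p = 0.0264), and Traf3, higher in aerocytes (0.740 to 0.765 and 0.491 to 0.580, 0.20 ± 0.039, adjusted p = 0.0360). Receptors gave 159, with 3 higher and 1 lower. These were Il1r1 in gCap cells, Il1rap, its accessory protein, in aerocytes (0.648 to 0.763 and 0.332 to 0.573, 0.23 ± 0.052, adjusted p = 0.0475), Tlr4 in ciliated cells (0.0808 to 0.0901 and 0.0392 to 0.0507, 0.054 ± 0.010, adjusted p = 0.0194) and, lower, Il6ra in AT1 cells (0.909 to 1.17 in CS and 1.56 to 2.32 in RA mice, -0.55 ± 0.084, adjusted p = 0.00263). The 209 combinations of other negative regulators had no call, the 115 of other cytokines had the 2 decreases in macrophages, and the 201 of other targets had the 3 in gCap cells. The digestion-response genes gave 305, with 13 lower and none higher, and with 216 negative and 89 positive. The largest called decrease after Egr1 in macrophages was Btg2 in AT1 cells (-1.05 ± 0.13, adjusted p = 0.000758). Myd88 was not analysed here.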

How the data were processed

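Lung cells of 8 mice (4 CS, 4 RA, grouped by the labelled exposure) were profiled by 10x scRNAseq. The deposited matrix holds estimated counts of unique molecules per gene and cell, which the authors made with STAR 2.7.3a (STARsolo) on GRCm38 and then corrected for free RNA with SoupX, so only 1.28% of values are whole (within 1e-06) and no count model was used. The authors also deposited each cell's mitochondrial percentage, which was above 5 in 1628 cells and was not used to filter here, and the cell type labels used throughout. Cells labelled multiplet (1025) were left out, and no further doublet caller was run. Transcript totals were at least 1001 per cell, and the number of cells per mouse and type limits the precision of each mean.

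Each cell was scaled to 10,000 transcripts and averaged per mouse and type. Mice with at least 20 cells of a type, types with at least 3 such mice per exposure, and genes found in at least 10% of the type's cells in either exposure were tested. log2(mean + 1) was compared with limma 3.58.1 (R 4.3.3, trended empirical Bayes, two-sided) with Benjamini-Hochberg adjustment over all genes of a type at 0.05. All log2 differences are CS minus RA on this scale, ± SE, which understates changes of low genes. Exact two-sided permutation tests over mice, sign-flip tests between neighboring types and limma on within-mouse differences between types were run with Python 3.11.15 and R. The sign-flip tests took the mice of both exposures together. Shares of cells were computed after thinning to 2000 transcripts.

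The values in every mouse are given for each member in the 3 tested types where it was highest. They are also given in gCap, AT2 cells and alveolar macrophages where it was tested, and wherever it was called. Up to 5 called genes per pathway list, by the size of the difference, and the 3 most similar genes per member were named. Chil3, Ear2, Marco, Krt79 and the mast cell transcripts, and the values in monocytes, ciliated cells and fibroblasts, were chosen after values were seen. The members and all lists were chosen with earlier results of these data known. Each sequencing lane held 1 CS and 1 RA library. The correlation of same-lane deviations was over 0.1 in 10 of 68 lane and type pairs (range -0.27 to 0.39) and in no type in every lane, so lane was an alternative and not a term. Of these 10 pairs, 7 were in lane 4, gCap cells among them (r = 0.39). Pairs with interstitial macrophages could not be fitted, with 101 such cells in all. Alternatives covered the pseudocount, the detection limit, lane, sex, scaling, cell number, depth and single mice.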

Additional observations from a re-analysis of the deposited data

Results flagged for a closer look

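In 6 of the 90 groups of 4 mice examined, 1 mouse lay far from the other 3 by Dixon's test, where chance alone marks about 1 in 20 groups. Relb in AT2 cells was 0.251 in RA mouse 2 and 0.197 to 0.205 in the others. Zfp36 in cells labelled mast was 16.26 in CS mouse 4 and 11.5 to 11.8 in the others. Icam1 in arterial endothelium was 19.6 in RA mouse 4 and 8.10 to 9.95 in the others. Birc3 in neutrophils was 7.306 in CS mouse 4 and 4.36 to 4.6 in the others. Il6 in alveolar fibroblasts was 0.5279 in RA mouse 4 and 0.230 to 0.267 in the others. Tnf in alveolar macrophages was 6.945 in RA mouse 3 and 10.8 to 11.5 in the others, and it was still above every CS mouse.

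The effect of smoke on Nfkbia differed between types, being 0.6098 higher (log2, SE 0.12) in gCap cells than in alveolar macrophages by the test of the difference itself (limma, adjusted p = 0.0287). Both effects were decreases, of -0.63 and -1.24. The call was lost with the lane block, with a pseudocount of 0.1 and in 6 of 8 omissions of a single mouse.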

How the results depend on the processing

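No sign of a called member changed under any alternative run. The count of 7 calls was 0 with genes of any detection tested, 3 with at least 50 cells per mouse (alveolar macrophages were then not testable), and 36 with a Wilcoxon test over single cells, which are not replicates. It was 5 to 9 under the other settings, including the lane block (6), labelled sex (9) and sex by Xist and Ddx3y (7, added after the data were seen). Leaving out single mice gave 3 to 9 calls, with 3 without CS mouse 1, CS mouse 3 or RA mouse 2. The single call between types became 0 with a pseudocount of 0.1 and with the lane block, and 0 to 2 without single mice; it held without CS mouse 4 or RA mouse 3 (over the 8 cases, adjusted p 0.0231 to 0.107). Nfkbia in alveolar macrophages was called in 10 of 11 other settings and lost with genes of any detection (adjusted p = 0.0574). Nfkbiz was lost there with a pseudocount of 0.1 (0.0770) and in cells with at least 2000 transcripts (0.0698). Icam1 was lost in 5 of 11. With summed counts, 7 of 10 members kept their 3 highest types. Why calls were lost was not tested. Few cells limit the macrophage and monocyte values.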
